A study of Mus musculus with 34 samples.

Results

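The loci of ATF3 in macrophages of BALB/cJ mice were compared between cells given Kdo2-Lipid A (KLA), a ligand of Toll-like receptor 4, for 1 h and cells given vehicle (Veh). The members were chosen by strain, antibody and treatment: 2 of the 34 samples of the series are ChIP-seq with an antibody to Atf3 in the strain labelled Balb/cJ, 1 with KLA at 100 ng/mL and 1 with PBS as Veh. Peaks of the 2 lists that overlapped by 1 bp or more were joined into 1 locus, which gave 40484 loci in 3 classes: 20989 in the KLA list only (KLA-only), 15811 in both lists (shared) and 3684 in the Veh list only (Veh-only). Both samples came from thioglycollate-elicited macrophages (TGEMs) of male mice 8 weeks old, cells drawn to the peritoneum by a sterile irritant and then kept in culture. They therefore carry the recruited, cultured state of such cells also without KLA. The series as a whole mapped several AP-1 monomers (Jun, JunD, JunB, Fos and ATF3) at rest and after KLA in BALB/cJ and C57BL/6 mice, with input DNA and with lineage factors in C57BL/6.

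ATF3 is a basic leucine zipper protein of the ATF/CREB family that binds DNA only as a dimer, with itself, with Jun proteins or with C/EBP proteins. Dimers of the AP-1 family read the TRE, those with a CREB-like spacing read the CRE, and dimers of an ATF protein with a C/EBP protein read a composite of one site of each. Toll-like receptor 4 signals through NF-kB and the MAP kinases to immediate-early genes, and ATF3 is itself induced by this path and is known for holding back cytokine genes in macrophages.

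Each list holds the peaks that passed the authors' reproducibility filter over replicates, so there was 1 list per treatment and no replicate value. No difference below was therefore tested, and the 95% intervals (Wilson) cover counting error only, with loci taken as independent. The count given with a peak is used as its strength within a list. The KLA list held 36821 peaks with a median count of 44 (17 to 385), and the Veh list held 19506 peaks with a median count of 36 (14 to 286). A locus missing from a list had no peak that passed, which does not show that ATF3 was absent there.

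Sequences at the strongest loci of each class show which recognition sites lay at them. Each is the plus strand of the mm10 (GRCm38) reference over 81 bases, in the order 5′ to 3′, around the motif nearest the centre of the locus or, with none, around the centre. Capitals mark motif matches on either strand: the TRE (TGACTCA or TGAGTCA), the CRE (TGACGTCA), the C/EBP-ATF composite (TGATGCAA), PU.1 (ACTTCCT), Runx (TGTGGTT), the ISRE of interferon-regulated genes (GAAANNGAAA), an E-box (TCACGTG), Sp1 (CCCCGCCC), NF-kB and C/EBP (TTACACAA, TTACATAA, TTACGCAA, TTACGTAA, TTGCACAA, TTGCATAA, TTGCGCAA or TTGCGTAA). The BALB/cJ allele can differ from the reference at single bases. The loci are named by the nearest protein-coding transcription start site (TSS). The 4 KLA-only loci with the highest KLA counts were the following, and within the bases printed 2 showed a TRE, 1 an NF-kB match and 1 a TRE beside a composite. Beyond the bases printed, but within the central 200 bp, Rab11fip4 also held a TRE and Kdm6b an NF-kB match.
Stk40, chr4:126103252-126103332: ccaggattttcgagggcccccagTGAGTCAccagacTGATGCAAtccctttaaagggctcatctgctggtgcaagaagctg
Ifi203, chr1:173955256-173955336: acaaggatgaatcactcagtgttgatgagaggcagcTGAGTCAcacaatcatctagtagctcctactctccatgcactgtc
Rab11fip4, chr11:79611209-79611289: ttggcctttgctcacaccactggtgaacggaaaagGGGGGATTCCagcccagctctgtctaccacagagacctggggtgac
Kdm6b, chr11:69410763-69410843: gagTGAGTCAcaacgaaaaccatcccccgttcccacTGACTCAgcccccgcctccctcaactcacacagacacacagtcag

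The windows of the 4 Veh-only loci with the highest Veh counts showed a TRE, a PU.1 match and, in 2 cases, none of the motifs. Beyond the bases printed, but within the central 200 bp, Cxcr4 also held an E-box.
Itga5, chr15:103370609-103370689: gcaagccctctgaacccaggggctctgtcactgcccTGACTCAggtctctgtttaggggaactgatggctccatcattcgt
Dcakd, chr11:103007010-103007090: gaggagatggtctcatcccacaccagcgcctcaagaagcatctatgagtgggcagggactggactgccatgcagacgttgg
Cxcr4, chr1:128747478-128747558: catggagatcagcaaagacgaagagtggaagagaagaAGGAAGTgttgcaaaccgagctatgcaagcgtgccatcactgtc
Cd200r3, chr16:44989149-44989229: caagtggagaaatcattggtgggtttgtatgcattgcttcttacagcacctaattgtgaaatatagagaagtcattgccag

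The windows of the 4 shared loci strongest in both lists showed a Runx match, a TRE in 2 cases and a C/EBP match. Outside the bases printed, but within the central 200 bp, Prss56 and Nfil3 also held the composite, with PU.1 at Prss56 and an ISRE at Nfil3.
Glrp1, chr1:88587473-88587553: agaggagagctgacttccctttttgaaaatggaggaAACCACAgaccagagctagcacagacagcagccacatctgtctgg
Prss56, chr1:87181045-87181125: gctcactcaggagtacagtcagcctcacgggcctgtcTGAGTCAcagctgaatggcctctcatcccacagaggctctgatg
Nav1, chr1:135594029-135594109: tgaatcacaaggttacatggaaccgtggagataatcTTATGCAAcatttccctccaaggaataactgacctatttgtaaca
Nfil3, chr13:52976793-52976873: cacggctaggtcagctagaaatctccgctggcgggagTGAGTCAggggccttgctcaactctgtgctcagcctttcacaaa

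A further 6 windows come from shared loci whose rank shifted most. They were chosen from the 20 named below, after their values were seen, for motifs whose shares differed among all shared loci that shifted. Ipo5 and Il23a moved up with KLA, and Nfkbia, Slc25a24, Fam174a and Ndrg1 moved down. The motifs did not separate the 20 loci themselves: NF-kB lay at Il23a and at Nfkbia, which moved in opposite directions. In the central 200 bp, Flrt3, Csf1, Btg1, Tnfaip8 and a Spdye4c locus, which moved up, held none of the motifs. Nor did Dab2 and Slc36a1, which moved down.
Ipo5, chr14:120910504-120910584: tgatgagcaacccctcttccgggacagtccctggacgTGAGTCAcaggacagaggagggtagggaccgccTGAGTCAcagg
Il23a, chr10:128299023-128299103: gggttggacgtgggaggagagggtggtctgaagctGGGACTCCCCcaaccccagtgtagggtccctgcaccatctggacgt
Nfkbia, chr12:55488796-55488876: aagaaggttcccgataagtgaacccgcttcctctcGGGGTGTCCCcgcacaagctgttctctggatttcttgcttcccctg
Slc25a24, chr3:109153583-109153663: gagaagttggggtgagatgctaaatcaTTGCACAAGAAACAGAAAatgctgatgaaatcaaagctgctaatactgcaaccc
Fam174a, chr1:95339805-95339885: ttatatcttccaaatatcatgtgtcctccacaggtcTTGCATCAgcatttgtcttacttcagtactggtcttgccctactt
Ndrg1, chr15:66979434-66979514: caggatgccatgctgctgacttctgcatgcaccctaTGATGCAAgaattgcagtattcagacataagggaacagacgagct

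Most ATF3 loci of resting cells stayed in the list after KLA, and more than that number were listed with KLA alone. Of the 19495 Veh loci, 81.1% (95% interval 80.5 to 81.6) were also KLA loci, and of the 36800 KLA loci 43.0% (42.5 to 43.5) were also Veh loci. In C57BL/6, where the same pair of lists gave 41097 loci, 81.1% (80.6 to 81.6) of the Veh loci were kept, and its KLA-only, shared and Veh-only loci numbered 17946, 18782 and 4369. The KLA list had 1.89 times as many peaks as the Veh list and 2.47 times the summed count. With the KLA list cut to the number of peaks in the Veh list, 7300 loci were KLA-only, 12199 shared and 7299 Veh-only, and 62.6% of the Veh loci were kept. Lists of equal length give near-equal numbers of KLA-only and Veh-only loci by construction, so this cut does not tell why the KLA list was longer. KLA-only loci made up 50.2% to 55.3% of the loci on every chromosome but Y, which held 4 loci.

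Loci found in 1 treatment only were weaker than shared loci. The median KLA count was 34 at KLA-only loci (quartiles 26 and 49) and 69 at shared loci (44 and 110). The median Veh count was 23 at Veh-only loci (18 and 29) and 41 at shared loci (28 and 63). Among KLA loci ordered by count in 10 equal groups, the KLA-only share was 89.6% (88.5 to 90.5) in the lowest and 10.6% (9.67 to 11.7) in the highest, which still held 391 KLA-only loci. Among Veh loci, 53.9% (51.7 to 56.1) of the lowest group and 0.308% (0.141 to 0.670) of the highest, 6 loci, were Veh-only. A Veh peak lay within 1 kb, without overlap, of 14.1% of the KLA-only loci, and a KLA peak within 1 kb of 22.4% of the Veh-only loci.

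**Figure D1:**
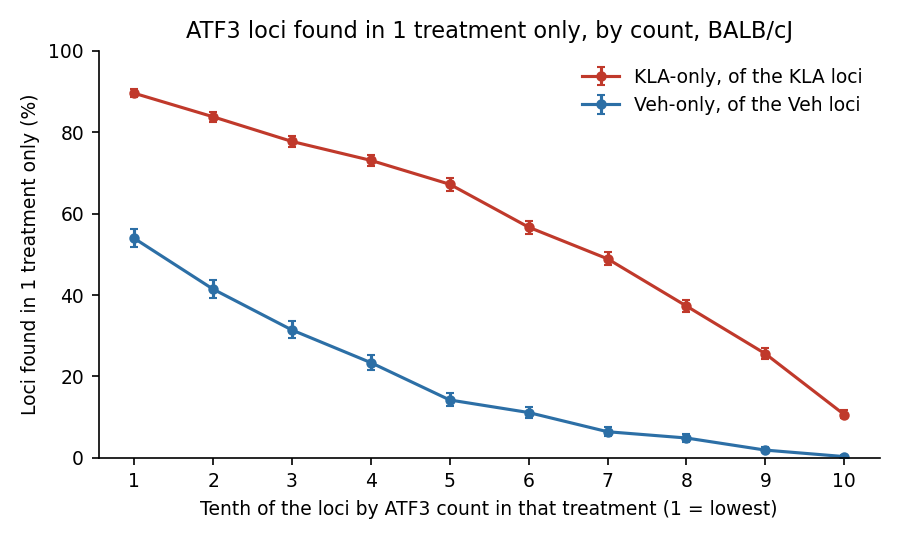
Share of ATF3 loci found in 1 treatment only (y axis, percent) in 10 equal groups of the loci by count (x axis, 1 is the lowest), for KLA loci in red and Veh loci in blue, with 95% Wilson intervals as bars. Both lines fall with the count, from 89.6% to 10.6% for KLA and from 53.9% to 0.308% for Veh.

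The strongest KLA-only locus had a count of 298 and lay 637 bp upstream of Stk40, which encodes a kinase-like protein. It went against its class in the other lists. C57BL/6 had ATF3 counts of 377 with KLA and 371 with Veh there, and JunD in BALB/cJ had 219 with Veh and 200 with KLA. The second, with a count of 284, lay 12.6 kb upstream of Ifi203, an interferon-inducible gene of the Ifi200 family, and neither Jun nor JunD had a Veh peak there. Its KLA counts were 149 for Jun, 300 for JunD and 463 for Fos, with no JunB peak, and in C57BL/6 the ATF3 locus was again KLA-only with a count of 161. The locus in an intron of Kdm6b, a histone H3K27 demethylase gene, was of the same kind, with an ATF3 count of 245 and KLA counts of 77 for Jun, 176 for JunD, 307 for Fos and 121 for JunB. No other BALB/cJ monomer had a Veh peak there, and C57BL/6 had an ATF3 count of 262 with KLA and no Veh peak.

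The other 7 of the 10 strongest KLA-only loci had counts from 224 to 246. They were nearest to Rab11fip4, Errfi1, Chst11, Lilr4b and Kctd12 and, for 2 loci, to Ccrl2, an atypical chemokine receptor gene. Errfi1 encodes a feedback inhibitor of EGF receptor signalling, and its locus lay 16.3 kb upstream with a count of 238. That locus had no Jun or JunD peak at rest and 4 monomers with KLA, among them Fos with a count of 345 in its own list. All 10 had a Fos peak and a JunD peak with KLA. In C57BL/6, 6 of the 10 had an ATF3 peak in both treatments, 3 were KLA-only and 1 was Veh-only, so that the class differed between the strains at 7 of them.

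Of the 10 strongest Veh-only loci, 7 had an ATF3 peak with KLA in C57BL/6, 2 were Veh-only there and 1 had no peak. The first, 3.85 kb upstream of the integrin gene Itga5, had a Veh count of 191. It was missing from the KLA list although JunD had 266 and JunB 234 there with KLA and C57BL/6 had an ATF3 count of 471 with KLA. The second, near Dcakd, had a Veh count of 141 and a Fos KLA count of 375. At both loci other lists held strong KLA peaks, although the BALB/cJ Fos list had no KLA peak at the Itga5 locus. Why ATF3 was missing from the BALB/cJ KLA list was not tested. A locus 155 kb upstream of the chemokine receptor gene Cxcr4 was Veh-only in both strains. It had ATF3 Veh counts of 135 in BALB/cJ and 143 in C57BL/6, Veh counts of 39 for Jun and 96 for JunD, and no peak of any AP-1 monomer with KLA. A locus 161 kb upstream of Jun, with a Veh count of 84, had the same pattern, with a C57BL/6 Veh count of 151. Veh counts of 80 to 102 marked the other loci, near Cd200r3, Bst1, Tmem230, Rnf169, A1cf and Fth1, the last encoding the ferritin heavy chain.

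The classes lay in similar places. Within 1 kb of a TSS were 18.9% (18.4 to 19.4) of the KLA-only loci, 14.3% (13.8 to 14.9) of the shared and 16.3% (15.1 to 17.5) of the Veh-only loci. Introns held 42.5%, 44.2% and 43.2%, and intergenic sequence 36.4%, 39.2% and 36.6%. The median distance to a TSS was 12.7 kb at KLA-only, 15.3 kb at shared and 14.5 kb at Veh-only loci. From the lowest to the highest of 4 equal groups of KLA loci by count, the TSS share was 22.3%, 19.2%, 15.4% and 12.5% at KLA-only loci and 19.0%, 20.3%, 16.4% and 9.89% at shared loci. KLA-only loci thus had the higher share in the lowest and highest groups only. The class difference of 4.59 percentage points was 2.32 with lists of equal number. KLA-only loci often stood beside shared ones: 44.9% (44.3 to 45.6) had a shared locus within 10 kb, against 41.5% (39.9 to 43.1) of Veh-only loci and 52.0% (51.2 to 52.7) of shared loci with another shared locus.

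Fos, which heterodimerises with Jun proteins and is made on stimulation, was found with KLA at most loci where ATF3 was listed with KLA. A Fos KLA peak lay at 76.3% (75.7 to 76.8) of the KLA-only, 90.2% (89.8 to 90.7) of the shared and 31.7% (30.2 to 33.2) of the Veh-only loci. Fos had no peak in the Veh list of BALB/cJ and JunB had 9, which overlapped 7 shared loci and 1 KLA-only locus. JunB with KLA was at 40.8% (40.1 to 41.5), 69.0% (68.3 to 69.7) and 9.66% (8.75 to 10.7) of the classes in the same order. The lower share of Fos at KLA-only loci went with their lower counts. In the lowest of 4 equal groups of KLA loci by ATF3 count, Fos was at 54.5% of KLA-only and 56.2% of shared loci, and in the highest group at 98.5% and 98.7%. JunB likewise was at 15.4% and 18.5% in the lowest group and at 91.1% and 92.9% in the highest.

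JunD and Jun, the monomers with long lists in both treatments, followed the class. JunD had a Veh peak at 30.0% (29.4 to 30.6) of the KLA-only, 83.5% (83.0 to 84.1) of the shared and 48.8% (47.2 to 50.4) of the Veh-only loci. With KLA these shares were 61.0% (60.3 to 61.6), 82.4% (81.8 to 83.0) and 23.5% (22.1 to 24.8). The JunD share was thus higher with KLA at KLA-only loci, lower at Veh-only loci and similar at shared loci. Jun went from 7.10% to 17.7% at KLA-only loci and from 14.4% to 4.45% at Veh-only loci, and from 53.2% to 44.4% at shared loci.

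The resting difference in JunD was also seen within groups of loci by ATF3 count. In the lowest of 4 equal groups of KLA loci by count a JunD Veh peak lay at 20.3% (19.5 to 21.2) of KLA-only and 61.2% (58.6 to 63.7) of shared loci, and in the highest group at 48.3% (46.1 to 50.5) and 93.4% (92.8 to 93.9). The shares with KLA differed less between these classes at like counts. JunD with KLA was at 94.9% and 96.9% in that highest group and at 39.2% and 43.3% in the lowest. Jun with KLA was at 60.3% and 70.0% in the highest group and at 3.98% and 5.47% in the lowest. Where JunD had a Veh peak, it was kept with KLA at 86.1% (85.5 to 86.7) of shared, 71.6% (70.5 to 72.7) of KLA-only and 32.4% (30.2 to 34.6) of Veh-only loci. Where it had none, it was listed with KLA at 63.5%, 56.4% and 15.0% in that order.

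**Figure D2:**
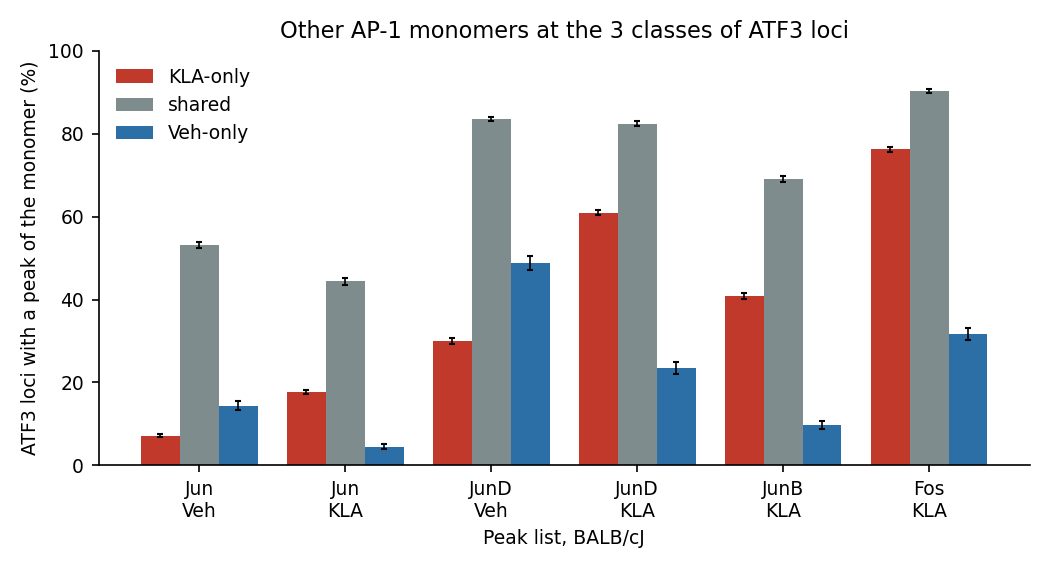
Share of ATF3 loci in BALB/cJ with a peak of another AP-1 monomer (y axis, percent) by peak list (x axis), for KLA-only loci in red, shared in grey and Veh-only in blue, with 95% Wilson intervals. Shared loci have the highest share in every list, and JunD goes from 30.0% to 61.0% at KLA-only loci and from 48.8% to 23.5% at Veh-only loci between Veh and KLA.

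All 4 other monomers were listed with KLA at 38.6% (37.9 to 39.4) of shared loci, 12.4% (12.0 to 12.9) of KLA-only and 1.47% (1.13 to 1.91) of Veh-only loci. None of them was listed with KLA at 5.37%, 15.6% and 57.6%. These shares were not compared at like ATF3 counts, which were lower at KLA-only than at shared loci. The commonest set at KLA-only loci was JunD, Fos and JunB without Jun, at 21.4%, followed by JunD with Fos at 17.2% and Fos alone at 16.6%. At shared loci all 4 together were commonest. Of the Fos KLA peaks, 39.6% lay at KLA-only loci, with a median percentile of 50.1 by count within the Fos list, and 35.3% at shared loci, with a median percentile of 74.4. The 22.3% of Fos peaks that had no ATF3 locus had a median percentile of 18.6.

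Jun or JunD was already listed in resting cells at 31.2% (30.6 to 31.9) of the KLA-only loci, 6555 of them, and at 14434 neither was. Those with a resting monomer had a median ATF3 KLA count of 40 against 32. A PU.1 peak of resting C57BL/6 cells lay at 48.3% (47.1 to 49.5) of them against 21.6% (20.9 to 22.3) of those without. ATF3 had a C57BL/6 Veh peak at 46.5% (45.3 to 47.8) against 15.2% (14.7 to 15.8). The NF-kB motif was in 8.28% (7.64 to 8.98) of the windows with a resting monomer and 11.5% of those without.

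PU.1 and C/EBPα set up macrophage enhancers, and PPARγ is a nuclear receptor active in these cells. Their lists came from C57BL/6, not BALB/cJ. In resting cells, C/EBPα was at 9.09% (8.70 to 9.48) of KLA-only, 40.7% (39.9 to 41.5) of shared and 27.6% (26.2 to 29.1) of Veh-only loci. With KLA it was at 17.7%, 45.6% and 19.2%. PU.1 went from 29.9% to 41.7% at KLA-only, from 58.4% to 64.9% at shared and from 46.9% to 39.8% at Veh-only loci between Veh and KLA. Both factors, measured in another strain, thus had a higher share with KLA at KLA-only loci and a lower share at Veh-only loci. PPARγ of resting cells was at 28.3%, 64.0% and 36.5% of KLA-only, shared and Veh-only loci.

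The classes of BALB/cJ were compared with those of C57BL/6 at the same places. Of the KLA-only loci, 44.8% (44.1 to 45.5) were KLA-only in C57BL/6, 21.4% shared, 3.79% Veh-only and 30.0% without a peak. Of the shared loci, 78.0% (77.3 to 78.6) were shared there and 5.55% had no peak. Veh-only loci were the least alike, with 21.8% (20.5 to 23.1) Veh-only in C57BL/6, 20.7% shared, 14.8% KLA-only and 42.7% without a peak. They were also weak, with a median Veh count of 23 and a lowest of 14, and the classes were not compared at like counts. An ATF3 peak was listed with KLA in C57BL/6 at 35.3% (33.7 to 36.8) of the BALB/cJ Veh-only loci.

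NF-kB matches were commonest at KLA-only loci and matches to C/EBP sites at Veh-only loci. In the central 200 bp, the NF-kB motif was in 10.5% (10.1 to 10.9) of KLA-only, 4.62% (4.31 to 4.96) of shared and 2.17% (1.75 to 2.69) of Veh-only loci. It was in 2.93% of 77629 windows of the same length 5 kb to each side of the loci and in 6.07% of RefSeq promoters. The C/EBP-ATF composite went the other way, in 1.38% (1.23 to 1.54), 4.16% (3.86 to 4.48) and 7.71% (6.89 to 8.62), against 0.500% of the windows at 5 kb and 0.639% of promoters. The C/EBP motif was in 6.20%, 10.8% and 12.3% of the classes, with 2.75% at 5 kb and 2.75% of promoters. Veh-only loci were weaker than shared loci, and the 2 were not compared at like Veh counts. Shared loci in the lowest of 4 equal groups of KLA loci by count had the C/EBP motif in 12.1%, near the Veh-only share. They had the composite in 4.90% and NF-kB in 2.88%.

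For NF-kB and the composite, the order of KLA-only and shared loci was the same at high and at low ATF3 counts. In the highest of 4 equal groups of KLA loci by count, NF-kB was in 17.9% of KLA-only and 5.71% of shared loci, and in the lowest group in 8.24% and 2.88%. The composite was in 1.39% and 3.76% in the highest group and in 1.57% and 4.90% in the lowest. With lists of equal number, NF-kB was in 13.5%, 5.12% and 2.55% of KLA-only, shared and Veh-only loci, and the composite in 1.42%, 4.01% and 6.27%. NF-kB at KLA-only loci was in 11.3% near a TSS and in 10.3% away from one.

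The TRE, the site of AP-1 dimers, was the commonest of the motifs at KLA-only and shared loci, while PU.1 matches were commoner at Veh-only loci. The C/EBP motif, in 12.3% (11.3 to 13.4) of Veh-only loci, was close to the TRE there. With lists of equal number these 2 motifs were in 11.9% and 14.0% of Veh-only loci. The TRE was in 28.4% (27.8 to 29.0) of KLA-only, 33.6% (32.8 to 34.3) of shared and 11.8% (10.8 to 12.9) of Veh-only loci, against 3.22% of the windows at 5 kb and 3.66% of promoters. The order of KLA-only and shared loci for the TRE was not the same in every group by ATF3 count. From the lowest to the highest of 4 equal groups of KLA loci by count, the TRE was in 24.1%, 27.1%, 33.4% and 38.1% of KLA-only loci and in 13.3%, 19.3%, 30.2% and 44.7% of shared loci. It was thus commoner at KLA-only loci in 3 of the 4 groups. The highest group spans counts of 74 to 385, with shared loci more frequent towards its top, so counts within it were not matched between the classes. The CRE was in 2.04%, 2.33% and 0.706%, against 0.122% at 5 kb and 1.47% of promoters, and near a TSS in 5.42%, 8.67% and 2.34%. PU.1 was in 16.5%, 21.6% and 21.8%, against 4.82% and 6.34% of promoters. Of the other motifs, Runx was in 6.37%, 7.43% and 7.33%, the ISRE in 4.06%, 3.64% and 3.18%, the E-box in 2.65%, 2.99% and 3.69%, and Sp1 in 4.56%, 3.27% and 3.47% of KLA-only, shared and Veh-only loci. At 5 kb these were in 5.22%, 2.90%, 0.952% and 0.912%, and in promoters in 3.49%, 2.27%, 2.83% and 15.1%.

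**Figure D3:**
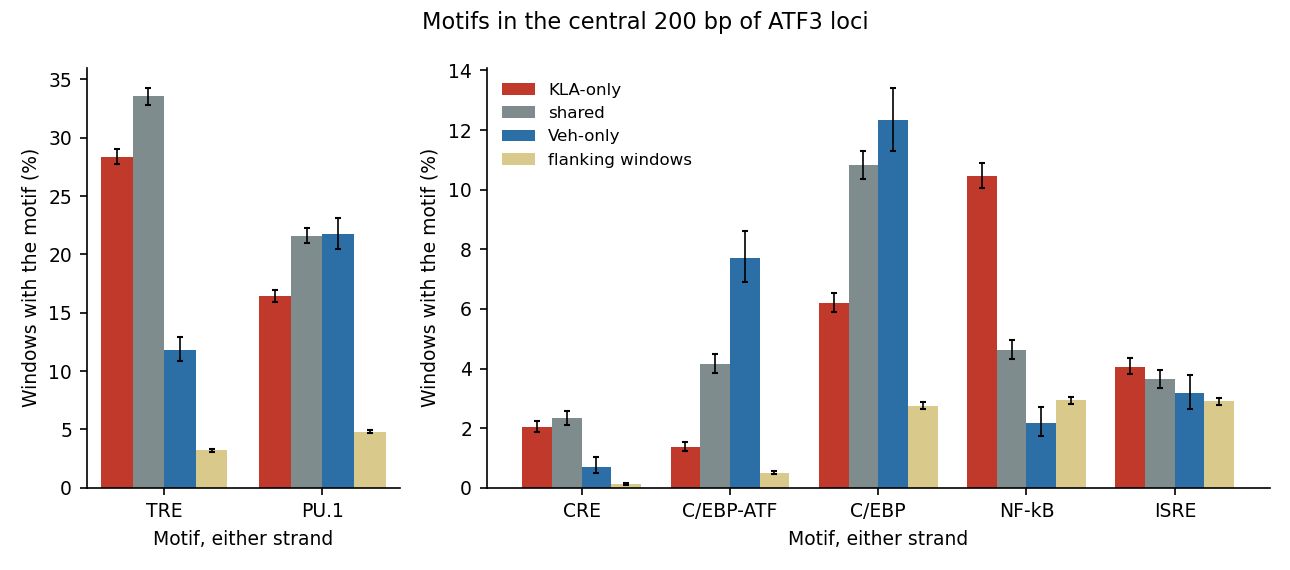
Share of windows of 200 bp with a motif on either strand (y axes, percent, with a separate scale for each panel) for KLA-only, shared and Veh-only ATF3 loci and for windows 5 kb to each side, with 95% Wilson intervals. NF-kB goes from 10.5% at KLA-only to 2.17% at Veh-only loci, and the C/EBP-ATF composite from 1.38% to 7.71%.

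Shared loci were ranked by count within each treatment among the shared loci alone, which balances upward against downward shifts. The percentile rank moved up with KLA by 25 points or more at 2134 of 15811 loci, 13.5% of them (95% interval 13.0 to 14.0). It moved down by as much at 2096 loci, 13.3% (12.7 to 13.8). With ranks taken within each whole list, 23.9% moved up and 5.22% moved down. The 2 ranks had a Spearman correlation of 0.67 across the 15811 loci, which share a library within each treatment. The shift was under 10 points at 39.6% of the loci. Loci that moved up had a median count of 27 in Veh and 92 in KLA, and those that moved down 52 and 43. Over all shared loci the median ratio of KLA to Veh count was 1.62.

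The other monomers were listed with KLA at more of the loci that moved up than of those that moved down. A JunB KLA peak lay at 87.5% (86.1 to 88.9) of the loci that moved up and at 45.0% (42.9 to 47.2) of those that moved down. Fos with KLA was at 97.7% and 78.9%, with a median percentile in the Fos list of 83.5 and 50.1. These shares moved with the KLA count of ATF3, whose median was 92 and 43. Among all shared loci, JunB was at 92.9% and Fos at 98.7% in the highest of the 4 groups by KLA count (74 or more), and at 34.8% and 79.6% in the second lowest (30 to 44). JunD was listed at rest at 79.9% (78.2 to 81.6) and 79.1% (77.3 to 80.7), and with KLA at 93.6% and 65.2%. Where JunD had a peak in both lists, its own percentile was higher with KLA at 84.7% of 1619 loci that moved up and at 13.1% of 1153 that moved down. The median differences, KLA minus Veh, were 17.6 and -18.2 points. Jun showed the same, with medians of 23.4 points over 576 loci and -22.5 over 274.

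The direction of the shifts mostly recurred in C57BL/6, whose ATF3 lists came from other mice. Of the loci that moved up, 1551 were shared there too, and 1360 of these, 87.7%, had a shift above 0. Of the 1677 that moved down and were shared there, 11.8% did. The median C57BL/6 shift was 23.7 points for the first and -27.0 for the second. Across 12297 loci shared in both strains, Pearson's r of the shifts was 0.65 and Spearman's rho 0.60.

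For the TRE, NF-kB and C/EBP sites, loci that moved up stood to those that moved down as KLA-only to Veh-only loci, while Sp1 went the other way (2.30% up and 3.53% down). The TRE was in 42.1% of loci that moved up and 14.6% of those that moved down, and NF-kB in 8.86% (7.72 to 10.1) and 2.05% (1.53 to 2.75). The composite was in 1.5% (1.06 to 2.11) and 10.2% (8.94 to 11.5), and the C/EBP motif in 6.98% and 17.1%. C/EBPα of resting C57BL/6 cells was at 18.4% (16.8 to 20.1) and 62.6% (60.6 to 64.7) of them. The loci that moved up and down also differed in the KLA count of ATF3, with medians of 92 and 43. Among all shared loci, the TRE was in 44.7% of the highest of the 4 groups by KLA count (74 or more). It was in 19.3% of the second lowest group (30 to 44). Whether the motif differences hold at matched KLA counts was not tested.

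**Figure D4:**
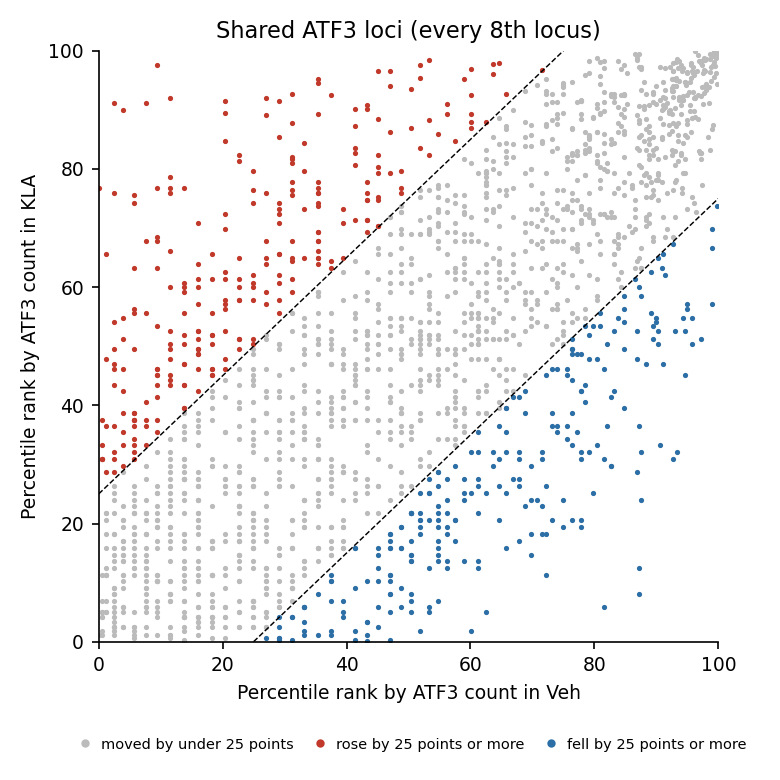
Percentile rank by ATF3 count in KLA (y axis) against that in Veh (x axis) for every 8th shared locus of BALB/cJ, with dashed lines at shifts of 25 points. Red points moved up by 25 points or more (13.5% of all shared loci) and blue points moved down by as much (13.3%).

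Among shared loci in the upper part of at least 1 list, the largest upward shift, 94.3 points, was at a locus 175 kb upstream of Flrt3, with counts of 18 in Veh and 236 in KLA. JunD there had 22 and 249. A locus 17.5 kb upstream of Csf1, the growth factor of macrophages, had 17 and 166, and C57BL/6 had it with KLA only, at 287. A locus 886 bp upstream of Il23a, which encodes a subunit of interleukin-23, had 23 and 214 and holds the NF-kB match printed above. Jun and JunD had no listed peak there at rest and had KLA counts of 83 and 156. The other loci, near Spdye4c (2 loci), Btg1, Pcnx, Tnfaip8, Lrguk and Ipo5, had Veh counts of 14 to 21 and KLA counts of 136 to 221.

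The rank fell by 83.1 points, the largest downward shift, at a locus 3.84 kb downstream of the TSS of Nfkbia and beyond its end, with counts of 96 in Veh and 29 in KLA. Nfkbia encodes the NF-kB inhibitor IκBα. Another shared locus, 122 bp upstream of its TSS, went the other way, from 24 to 137. JunD at the first locus had 112 in Veh and 113 in KLA. The locus near Olfr1423 had ATF3 counts of 112 and 33 and a JunD peak of 75 in Veh only. The other 8, near Slc25a24, Dab2, Akirin2, Slc36a1, 1700016C15Rik, Fam174a, Nlrc3 and Ndrg1, had Veh counts of 69 to 104 and KLA counts of 24 to 35. JunD had a Veh peak at 7 of these 8 and a KLA peak at 2.

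The 10 shared loci with the highest summed ranks were strong in both lists by their choice, which also fixes their shifts near 0. They had Veh counts of 204 to 286 and KLA counts of 297 to 372. They lay near Glrp1, Prss56, Nav1, Nfil3, Shisal2a, Gm20431, Itih1, Sfn, Gorab and Usp32. Nfil3, a basic leucine zipper repressor gene, had 221 and 332 at an intron 4.21 kb from its TSS. All 10 had Jun and JunD in both treatments and Fos and JunB with KLA. C57BL/6 held 9 of them in both treatments and the Nav1 locus with KLA only.

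Genes were given the loci in their body or within 5 kb. Of 21938 protein-coding genes, 36.8% had a KLA-only locus, 27.6% a shared locus and 10.9% a Veh-only locus, and the gene lists are read against these shares. The lists were chosen with earlier results of these data known, and long or neighbouring genes can hold the same loci as others. Paired counts at shared loci are in the order Veh and KLA. Their median ratio over all shared loci was 1.62, so a pair near that ratio rose no more than shared loci as a whole.

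Early cytokine and chemokine genes had KLA-only loci in 23 of 25 cases (92.0%), shared loci in 18 and Veh-only loci in 4. Il6 had a KLA-only locus 207 bp upstream of its TSS with a count of 97 and no shared locus. Jun, JunD, Fos and JunB were all listed there with KLA and neither Jun nor JunD with Veh. Ccl5 had 3 KLA-only loci, the strongest 4.31 kb upstream with a count of 143 and another 185 bp upstream with 103, and the stronger of its 2 shared loci had 23 in Veh and 161 in KLA. Cxcl10 had its strongest KLA-only locus 128 bp upstream, with 131. Il27 had 7 KLA-only loci, up to a count of 137, and Il10 had 4, up to 122.

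Tnf and Il1b had shared loci at the start site, beside 2 KLA-only loci each. The locus 109 bp upstream of Tnf had counts of 34 in Veh and 139 in KLA and moved up by 47.9 points, while the stronger of the shared loci in its body had 83 and 91 and fell by 20.9. Tnf and its neighbour Lta share these loci. Il1b had 65 and 193 at a locus 113 bp upstream and 95 and 190 at 2.36 kb upstream. Ccl4 held shifts in both directions: 19 and 104 at 4.86 kb upstream, 83 and 211 at 114 bp upstream, and 102 and 37 in its body, where the rank fell by 75.7 points. Cxcl2 had 30 and 158 at 169 bp upstream. Within 5 kb, Il12b, Lif, Tnfsf9, Ccl9, Csf3 and Csf1 had KLA-only loci alone, with highest counts of 25, 83, 80, 111, 40 and 62. The shared locus 17.5 kb upstream of Csf1 lay outside that distance.

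Genes of NF-kB subunits and inhibitors had KLA-only loci in 12 of 14 cases, shared loci in 12 and Veh-only loci in 4. Nfkb1, which encodes p105 and p50, held 18 KLA-only and 2 shared loci in or near its body, the strongest KLA-only one with a count of 134. Tnip1 had 7 KLA-only loci, up to 199 at 1.86 kb downstream of a TSS, and Nfkbiz had 147 at 99 bp downstream of one. Bcl3 reached 108 and Tnip3 121 at KLA-only loci. Rela had a shared locus 71 bp upstream with 101 and 156. Nfkbia alone of these genes had shared loci only.

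The AP-1 genes themselves had KLA-only loci in 12 of 15 cases, shared loci in 11 and a Veh-only locus in 1, Atf4. Atf3 held 6 shared and 3 KLA-only loci. Its start site had counts of 224 in Veh and 231 in KLA, a locus 6.67 kb upstream had 59 and 211, and the strongest KLA-only locus, 10.5 kb upstream, had 197. The start site was thus near the top of both lists, with a shift of -1.81 points, while the locus 6.67 kb upstream moved up by 25.3. Batf, which encodes a basic leucine zipper partner of Jun, had 4 KLA-only loci alone, up to 104. Fosl2 had a KLA-only locus of 82 at its TSS and a shared locus in its body that went from 92 to 45. Jun and Jund had shared loci at the start site, with 77 and 138 for Jun and 66 and 109 for Jund. Fosb had 90 and 80 there.

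Genes of the TLR4 receptor and its adaptors had KLA-only loci in 13 of 17, shared loci in 12 and Veh-only loci in 4. Irak2 and Irak3, kinases of the receptor complex of which Irak3 dampens signalling, had 8 KLA-only loci each, up to 63 and 104. Dual-specificity phosphatase genes, which switch off MAP kinases, had KLA-only loci in 10 of 11, shared loci in 8 and Veh-only loci in 2. Dusp1 was given 12 KLA-only loci, up to 104. Its 22 loci of all classes were assigned over a long annotated body, chr17:26505590-26562128, and need not lie at its start site. Socs and Spsb regulator genes had KLA-only, shared and Veh-only loci in 9, 5 and 2 of 12. Cish, a brake on cytokine receptors, reached a KLA-only count of 140 with no shared locus. Immediate-early genes beyond AP-1 had them in 19, 16 and 4 of 22, led by Gadd45b with a KLA-only count of 175 and Zfp36, an mRNA-decay factor gene, with 103.

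Interferon response genes had KLA-only loci in 16 of 20, shared loci in 8 and Veh-only loci in 6. Gbp5 and Ifih1 had 8 KLA-only loci each, up to 81 and 50, and no shared locus. Irf1 had 2, up to 61, and Ifnb1 had 1 of 57. Genes of inflammatory enzymes and iron handling had 10, 10 and 4 of 15. Ptges, a prostaglandin E synthase gene, reached a KLA-only count of 167. Ptgs2, which encodes cyclooxygenase 2, had 1 KLA-only locus of 90 and no other, while Nos2 and Arg1 had 3 shared loci each and none of KLA alone. Fth1 and Ftl1, the ferritin genes, had 2 Veh-only loci each, with highest Veh counts of 80 and 45.

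Lineage factor and surface receptor genes had shared loci in more members than KLA-only loci, while lysosome genes had the highest KLA-only share of the 15 lists, 19 of 20. Lineage transcription factor genes had KLA-only loci in 12, shared loci in 14 and Veh-only loci in 6 of 15, with 24 KLA-only loci at Mitf and 13 at Runx1. Surface receptor genes had 10, 13 and 4 of 15, and Itgax and Cd68 had 3 shared loci each and none of KLA alone. Genes of PPARγ and lipid handling had 15, 13 and 5 of 18, with KLA-only counts up to 91 at Scd1 and 89 at Abca1. Lysosome genes had 19, 17 and 9 of 20, the highest Veh-only share of the 15 lists by this rule though not by the nearest TSS (8 of 20, against 11 of 15 for lineage factors), with 5 Veh-only loci at Ctsd (up to 79) and 4 at Lamp2 (up to 39). Ribosomal protein genes had 9, 9 and 5 of 22, and genes of other cell types 4, 4 and 1 of 20, both KLA-only shares near or under the 36.8% of all genes.

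**Figure D5:**
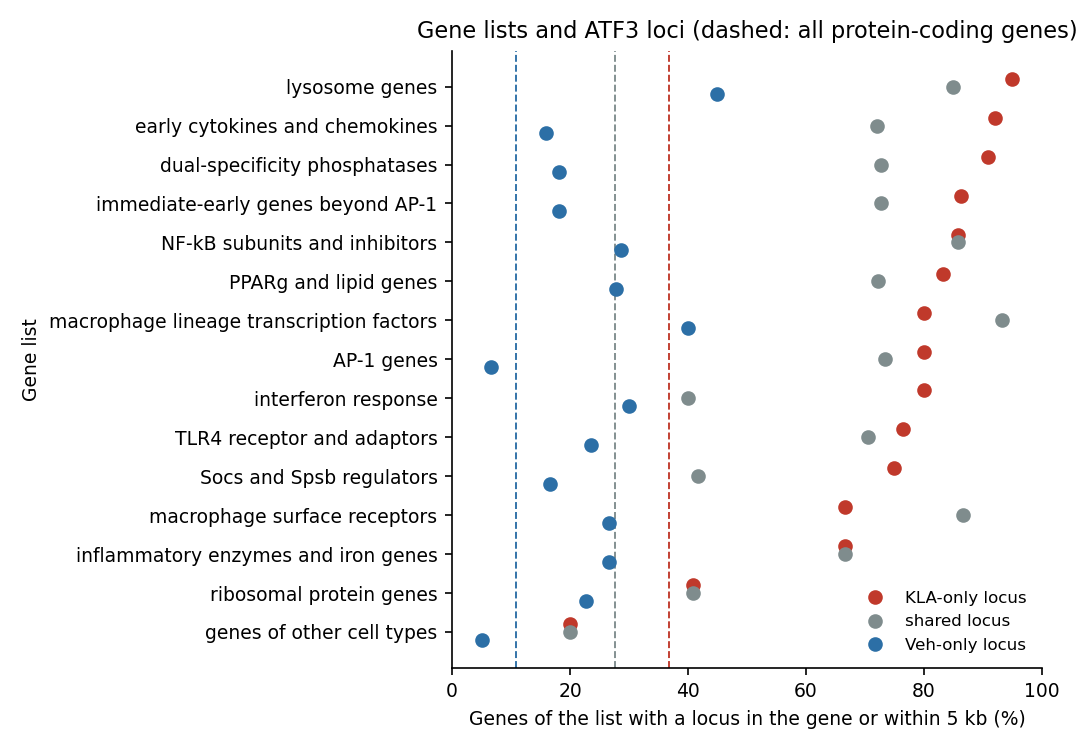
Share of the genes of each of 15 lists (y axis) that had an ATF3 locus of a class in the gene or within 5 kb (x axis, percent), for KLA-only loci in red, shared in grey and Veh-only in blue, drawn at slightly different heights. Dashed lines give the shares of all protein-coding genes, 36.8%, 27.6% and 10.9%, and early cytokine and chemokine genes lie at 92.0% for KLA-only loci.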

How the data were processed

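ChIP-seq of ATF3 in Balb/cJ TGEMs was analysed from the 2 deposited peak lists, with the lists of Jun, JunD, JunB and Fos of the same strain and those of ATF3, PU.1, C/EBPα and PPARγ of C57BL/6. Per the study's methods, the authors aligned reads with Bowtie2 to mm10 or, for BALB/cJ, to a genome carrying its variants, with positions returned to mm10 coordinates. HOMER was run with input as background, and peaks with an IDR of 0.05 or more between replicates were dropped. The deposited lists give a count per peak, whose scaling is not given in the sources used here, and an IDR score, 1000 being the highest. Reads in sequence deleted in BALB/cJ were not analysed. Coordinates are as the lists give them.

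From these files, peaks overlapping by 1 bp were joined into loci, with the highest count kept where a locus held more than 1 peak of a list (21 loci in KLA, 11 in Veh). TSSs (54355) and gene bodies were those of the 21938 protein-coding genes of GENCODE vM21 on GRCm38, and sequence came from the RefSeq GRCm38.p6 assembly. Motifs were exact matches in the central 200 bp. Flanking windows that overlapped a locus were left out. Percentile ranks were taken over shared loci. Named loci were the 10 highest by count of each class, the 10 shared loci with the highest summed ranks, and the 10 with the largest shift each way among shared loci in the upper 50% of either ranking. Genes named were members of 15 lists with a KLA-only or Veh-only locus, by count, and members named for shared loci or for the place of a locus were chosen after their values were seen. The loci, lists and motifs were chosen with earlier results of these data known. Python 3.11.15, pandas 2.3.3, SciPy 1.17.1 and pysam 0.24.0 were used, and the steps were tested on simulated peaks and sequences. Alternatives changed the overlap rule, the peaks kept, the ranking, the gene assignment and the motif window.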

Additional observations from a re-analysis of the deposited data

How the results depend on the processing

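With 1 list per treatment, no replicate could be left out and no test was run. Counts of loci and shares were recomputed under other rules. Requiring peak centres within 100 bp, or a reciprocal overlap of 50%, changed the share of Veh loci kept to 78.2% and 79.0% and the share of KLA-only loci with a JunD Veh peak to 31.1% and 30.8%. The peaks kept mattered more. With the strongest 50% of each list, KLA-only, shared and Veh-only loci numbered 10082, 8321 and 1429, with 85.3% of Veh loci kept. With lists of equal number, KLA-only and Veh-only loci numbered 7300 and 7299, with 62.6% kept. With peaks of score 1000 alone, they numbered 13423 and 1831, with 85.3% kept. With counts at or above the pooled median of 41, the 3 classes numbered 12820, 7486 and 785, with 90.5% kept. In these 4 settings a JunD Veh peak lay at 53.9%, 40.4%, 45.2% and 55.2% of KLA-only loci, and the Fos difference (KLA-only minus shared), -14.0 percentage points as reported, was -1.48, -1.08, -3.38 and -2.25. Each of these settings removes peaks by construction, so that a locus can leave a class because its partner was removed. The TSS difference was 2.32 points with lists of equal number. Ranking within the whole list in place of shared loci gave 23.9% moving up and 5.22% moving down. Summing counts in a locus moved neither share out of its interval. Taking the gene of the nearest TSS kept the number of genes with a KLA-only locus within 1.5 times in all 15 lists. Genes with a Veh-only locus moved by more in 5 lists: AP-1 genes from 1 to 5, immediate-early genes from 4 to 10, phosphatases from 2 to 5, lineage factors from 6 to 11 and ribosomal proteins from 5 to 2. Genes with a shared locus did so in the Socs and Spsb list, from 5 to 8. All 30 motif shares were lower in the central 100 bp, and 9 of 10 motifs kept the order of the classes, PU.1 being the exception. The motif shares with lists of equal number were chosen after seeing the data. The count of a peak limits what can be listed: in the lowest of 10 equal groups by count, most loci were found in 1 treatment only.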

Other observations

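Chromosome X held the highest shares of loci found in 1 treatment only among chromosomes other than Y, 55.3% KLA-only and 11.7% Veh-only of 675 loci. Soft-masked (repeat) sequence made up 50% or more of the central 200 bp at 4.07% (3.81 to 4.34) of KLA-only, 2.54% (2.31 to 2.80) of shared and 3.99% (3.40 to 4.67) of Veh-only loci. The median G+C content of these windows was 48.5%, 47.5% and 46.0%.

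The genes with the most KLA-only loci were long ones. Lpp, Foxp1, Etv6, Akap13, Dock10, Mitf, Rbm47 and Asap1 held 39, 35, 27, 26, 26, 24, 24 and 22, in bodies of 157 kb at Rbm47 to 599 kb at Lpp. Ahead of them stood Gm20388 with 104 and Fgfr2 with 41, whose annotated bodies of 4435 kb and 2961 kb span other genes.

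At Ccl3, a chemokine gene, neighbouring loci of different classes held different monomers with KLA. A shared locus 182 bp upstream of the TSS had ATF3 counts of 96 in Veh and 157 in KLA with Jun, JunD, Fos and JunB all listed with KLA. A KLA-only locus 514 bp upstream, with a count of 70, had Fos alone. These loci were chosen after their values were seen.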
